A study of Mus musculus with 2 samples.

Results

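Metallothioneins and the enzymes of glutathione defence were described across the cell types of mouse prefrontal cortex. The 10 genes were taken by symbol, Mt1, Mt2, Mt3, Slc7a11, Gclc, Gclm, Gpx4, Prdx6, Sod1 and Sod2, and all 10 were found among the 31040 genes of the count matrix. Single-nucleus RNA sequencing with droplet barcodes had been run on wild type C57BL/6 males, 2 months old. The METH group received METH at 5 mg/kg and the Control group saline, both into the peritoneum over 14 days. Cortices of 3 mice per group went into 1 library each. No label or file says which of the matrix's 2 libraries is METH and which is Control, so they are called library 1 and library 2 here, and METH was not compared with Control.

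Metallothioneins are small cysteine-rich proteins that bind zinc and copper and scavenge oxidants. In brain they are known mainly from astrocytes, and Mt3 is the form typical of nervous tissue. Glutathione is made from cystine imported by the Slc7a11 antiporter, through glutamate-cysteine ligase (catalytic subunit Gclc, modifier subunit Gclm). Gpx4 uses glutathione to reduce lipid hydroperoxides, Prdx6 is a peroxiredoxin that draws on glutathione, and the superoxide dismutases Sod1 (cytosol) and Sod2 (mitochondria) turn superoxide into hydrogen peroxide.

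After filtering, 18002 nuclei remained, 8003 in library 1 and 9999 in library 2, with median depths of 3047 and 2924 UMIs (unique transcript molecules). They fell into 11 named classes, each named for likeness to that cell type by its markers, and 437 nuclei in 5 clusters stayed unnamed. The listed markers were highest in the class of their name for 11 of 12 in astrocytes, 7 of 10 in excitatory neurons, 5 of 10 in inhibitory neurons, 11 of 12 in striatal projection neurons, 4 of 6 in cholinergic neurons and 7 of 9 in oligodendrocyte precursors, and for all of them in the other classes. The 1393 striatal projection neurons and the 290 neuroblasts and progenitors are types not usual in prefrontal cortex. Their shares differed between the libraries. Striatal projection neurons made up 5.27% of library 1 and 9.71% of library 2, and neuroblasts and progenitors 1.025% and 2.08%. Astrocytes were few, 51 nuclei (0.637% of library 1) and 258 nuclei (2.58% of library 2). The libraries stood apart in other genes too: in excitatory neurons the nuclear RNA Malat1 took 45830 UMIs in every 1000000 of library 1 and 28940 of library 2, and the glial gene Apoe 121 and 627. The libraries shared 154 barcode sequences. The sample records give 8000 nuclei loaded per group, fewer than the barcodes kept as nuclei in either library. The cause of that excess was not tested.

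Levels are UMIs of a gene per 1000000 UMIs of its class (CPM), with exact 95% Poisson intervals in parentheses. Nuclei are not replicates, so these intervals cover counting error only, and no p-value is given. Free RNA from broken cells adds UMIs to every nucleus. For each gene, class and library an upper limit for it, called the free RNA level, was scaled from Slc17a7, a transcript of excitatory neurons, and from myelin transcripts within those neurons themselves. That limit also absorbs any expression that all classes share.

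The 3 metallothionein genes lie side by side on chromosome 8 of mm10, all on the plus strand, Mt3 at chr8:94152607-94154146, Mt2 at chr8:94172664-94173568 and Mt1 at chr8:94179082-94180327. The gaps between them were 18517 bases from Mt3 to Mt2 and 5513 bases from Mt2 to Mt1. Their promoters are shown because these genes varied together across classes. Each run holds the 250 bases upstream of the RefSeq start on GRCm38.p6, plus strand, and capitals mark the core of the metal response element, TGCACNC or TGCGCNC, on either strand.
Mt1, chr8:94178839-94179088: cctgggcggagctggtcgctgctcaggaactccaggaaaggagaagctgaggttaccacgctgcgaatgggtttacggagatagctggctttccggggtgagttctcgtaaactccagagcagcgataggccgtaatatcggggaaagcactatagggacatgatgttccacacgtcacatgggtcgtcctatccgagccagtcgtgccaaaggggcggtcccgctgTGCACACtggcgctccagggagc
Mt2, chr8:94172368-94172617: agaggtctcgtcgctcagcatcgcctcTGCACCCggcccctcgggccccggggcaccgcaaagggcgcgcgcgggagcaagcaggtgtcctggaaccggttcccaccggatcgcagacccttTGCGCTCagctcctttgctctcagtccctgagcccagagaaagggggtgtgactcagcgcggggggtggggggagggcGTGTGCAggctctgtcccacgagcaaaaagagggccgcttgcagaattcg
Mt3, chr8:94152357-94152606: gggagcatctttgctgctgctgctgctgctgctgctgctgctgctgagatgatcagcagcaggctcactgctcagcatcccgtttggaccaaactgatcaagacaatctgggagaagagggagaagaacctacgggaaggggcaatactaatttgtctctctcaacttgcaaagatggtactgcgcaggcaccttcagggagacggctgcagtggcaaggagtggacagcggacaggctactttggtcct
Around the annotated start of Mt1, 2 more cores lie within 30 bases.
Mt1, chr8:94179088-94179117: ctcTGCACTCcgcccgaaaagTGCGCTCgg

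In the windows of 300 bases (250 upstream and 50 downstream) Mt1 held 3 metal cores, Mt2 held 4 and Mt3 held 1. Gclm, the other member with any, held 3. Of 32817 such windows of mouse genes, 25.7% held at least 1, 7.12% at least 2 and 1.97% at least 3. The core of the antioxidant response element, TGACNNNGC on either strand, occurred once each in the windows of Mt2, Gclm and Sod1, against 12.4% of all windows. In Gclm the antioxidant core overlaps 1 of the metal cores. Windows of Slc7a11, Gpx4 and Sod2 held neither, those of Gclc and Prdx6 were not analysed here, and a match of letters does not show that a factor binds.

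Of the 10 members, 5 had a clear highest class with both libraries pooled, that is, a class above its free RNA level whose ratio to the next class had an interval above 1. Over all 15925 genes with at least 50 UMIs, 22.1% had one. Mt1, Mt2, Mt3 and Prdx6 were highest in astrocytes, a call that 2.4% of all genes received, and Slc7a11 was highest in the class named fibroblast. For 4 of the 10 (Mt1, Mt2, Mt3 and Slc7a11) the same class was clear in each library taken alone, against 9.78% of all genes. The fibroblast class held 2 kinds of nuclei, which are given apart for Slc7a11. Every member was above its free RNA level in at least 1 class, as were 92.8% of genes. With a minimum of 1000 genes per nucleus only 89 astrocytes stayed, under the 100 nuclei required of a class, and 0 of 10 members had a clear highest class.

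Mt1, an inducible metallothionein found in many tissues, stood at 1043 CPM (803 to 1332, 64 UMIs) in astrocytes of library 1 and at 1686 CPM (1550 to 1830, 566 UMIs) in those of library 2. The astrocytes of each library lay above all other classes of that library. The free RNA level in astrocytes was 239.6 CPM in library 1 and 653.1 CPM in library 2. Next in library 1 came fibroblasts at 484.6 CPM, a ratio of 2.15 (1.21 to 4.07), and in library 2 microglia at 950.6 CPM, a ratio of 1.77 (1.55 to 2.03). In library 2, microglia, fibroblasts (906.1 CPM), oligodendrocytes (810.4 CPM) and neuroblasts (748.3 CPM) had Mt1 levels whose neighbouring intervals overlapped. Excitatory neurons were lowest, at 49.8 CPM in library 1 and at 245.2 CPM in library 2. Mt1 exceeded its free RNA level in 5 of 10 classes of library 1 but in 3 of 10 of library 2, and in the other 7 classes of library 2 it was not above what free RNA could give.

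Mt2, the close partner of Mt1, had larger ratios of astrocytes to the next class than Mt1 and Mt3, though in library 1 its interval overlapped theirs. In astrocytes it was at 570.2 CPM (397.2 to 793.1, 35 UMIs) in library 1 and 875.6 CPM (778.3 to 981.6, 294 UMIs) in library 2. Both values lay far above the free RNA levels of 59.2 and 165.2 CPM. Astrocytes exceeded the next class, fibroblasts in library 1, by 8.83 times (2.27 to 75.8), and microglia in library 2 by 3.29 times (2.61 to 4.17). Against excitatory neurons, where Mt2 was at 9.73 and 64.8 CPM, the ratios were 58.6 (39.6 to 84.6) and 13.5 (11.9 to 15.4). Mt2 overlaps the antisense gene Gm45774, which had 6 UMIs in all against 3654 for Mt2.

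Mt3 was above free RNA in excitatory and inhibitory neurons of both libraries and in striatal projection neurons of library 1. Among neurons, Mt1 was so in excitatory neurons of both libraries and striatal projection neurons of library 1, and Mt2 in excitatory neurons of library 2. For excitatory neurons these calls hold at the average ratio of Slc17a7 to myelin transcripts used, and a higher ratio was not tried. That ratio was 0.1213 in library 1, and 0.0898 to 0.2277 in single classes. In library 2 it was 0.1491, and 0.1377 to 0.1631 in single classes. Calls close to their limit, such as those of Mt1, depend on this choice. In astrocytes Mt3 reached 1173 CPM (917.9 to 1477, 72 UMIs) in library 1 and 1304 CPM (1185 to 1432, 438 UMIs) in library 2, intervals that overlap between the libraries. Microglia came next in each, with astrocytes higher by 5.44 times (3.83 to 7.75) in library 1 and 1.56 times (1.35 to 1.81) in library 2. Excitatory neurons had 104 CPM (99.4 to 108.8) and 254.2 CPM (247.2 to 261.4), with free RNA levels of 46.1 and 197.3 CPM. Inhibitory neurons had 125.3 and 329 CPM, with free RNA levels of 66.3 and 289.4 CPM.

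**Figure D1:**
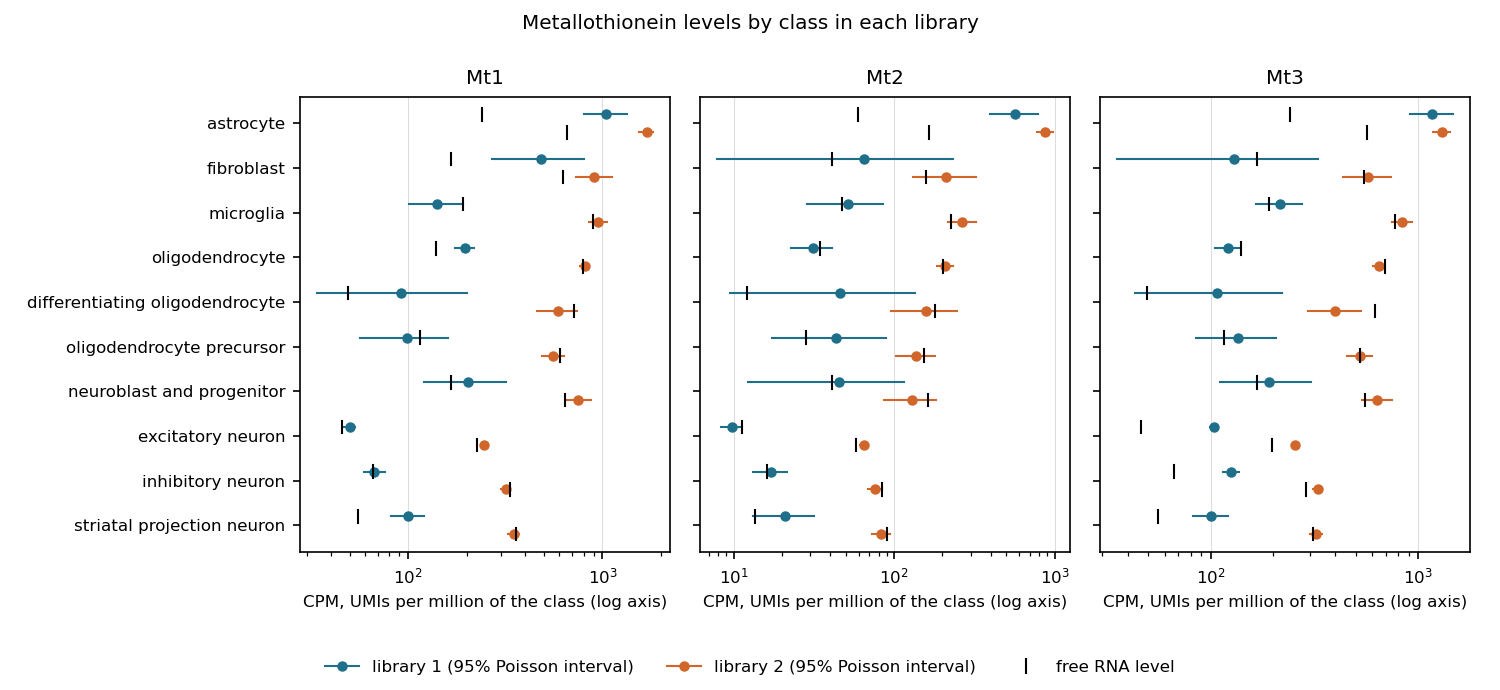
Levels of Mt1, Mt2 and Mt3 in CPM (log axis) by class. Points are libraries with exact 95% Poisson intervals and black ticks are free RNA levels. Astrocytes were highest in every panel and library, and elsewhere most points of library 2 sat near their ticks.

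With every nucleus thinned to 500 UMIs, which no nucleus fell short of, 41.2% of astrocyte nuclei in library 1 (27.6 to 55.8, exact Clopper-Pearson interval) and 55.8% in library 2 (49.5 to 62.0) held an Mt1 UMI. At that depth the free RNA level alone would put an Mt1 UMI in 11.3% and 27.9% of astrocyte nuclei. Without thinning these shares were 66.7% and 84.1%, at median depths of 1104 and 1202 UMIs. Excitatory neurons gave 2.81% and 12.5% when thinned, with 2.26% and 10.7% from the free RNA level, and microglia 7.33% and 37.9%, with 9.08% and 35.9%. Unthinned, excitatory neurons gave 20.3% and 65%, at median depths of 4464 and 4295 UMIs, and microglia 9.78% and 50.7%, at 665 and 722 UMIs. The median astrocyte nucleus of library 2 carried 2 Mt1 UMIs and the highest carried 9. Among the 258 astrocyte nuclei of library 2, thinned to 500 UMIs, Mt1 counts correlated with Mt2 counts at r = 0.152 and with Mt3 counts at r = 0.037, which in counts this sparse is no finding.

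Slc7a11, the cystine and glutamate exchanger that is known from astrocytes and meninges, is a long gene on the minus strand, chr3:49892526-50443614. In astrocytes it was at 472.5 CPM (316.4 to 678.6, 29 UMIs) in library 1 and 300.8 CPM (245 to 365.5, 101 UMIs) in library 2. The free RNA levels there were 14.8 and 15.4 CPM. Apart from fibroblasts, no other class of at least 100 nuclei exceeded 16.0 CPM in either library, and differentiating oligodendrocytes had no Slc7a11 UMI. Astrocytes exceeded excitatory neurons by 83.3 times (53.2 to 126.9) in library 1 and 36.4 times (28.1 to 46.9) in library 2. With both libraries pooled and fibroblasts left aside, astrocytes exceeded the next class, microglia, by 24.3 times (12.4 to 54.3).

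The class named fibroblast had more Slc7a11 still, 1324 CPM (950.5 to 1797, 41 UMIs in 30 nuclei) in library 1 and 473.2 CPM (347.7 to 629.3, 47 UMIs in 82 nuclei) in library 2. All 88 Slc7a11 UMIs of these 112 nuclei sat in 24 nuclei. A finer clustering, which used none of the members, split the class, a division examined after its values were seen. The 63 nuclei that kept the fibroblast name were high in Mgp (2367 CPM), Bnc2 (2319 CPM) and Slc47a1 (1898 CPM), genes known from meningeal fibroblasts, and had no Slc7a11 UMI, with an upper Poisson bound of 44.3 CPM. The other 49 nuclei held all 88, at 1870 CPM (1500 to 2304), in 8 of 12 nuclei of library 1 and 16 of 37 of library 2. Those 49 had Ranbp3l (1615 CPM) and Slc6a13 (680.1 CPM) from the fibroblast list beside Vtn (1636 CPM) and Pdgfrb (297.5 CPM) from the pericyte list, and astrocyte Slc1a3 (1318 CPM) with almost no Aqp4 (1 UMI). They received no name in the finer clustering, so the Slc7a11 level of the fibroblast class belongs to nuclei whose type is not settled here. An unnamed cluster of 28 nuclei led by the vascular genes Ly6c1, Rgs5 and Cldn5 had 32 Slc7a11 UMIs in library 2 (360.7 CPM, 246.7 to 509.3) and none in its 9 nuclei of library 1.

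Among neurons, Slc7a11 was highest in claustrum nuclei, a small group of excitatory neurons marked by Nr4a2, Oprk1 and Gnb4. It was at 42.9 CPM (24.0 to 70.8, 15 UMIs in 67 nuclei) in library 1 and 53.8 CPM (36.8 to 75.9, 32 UMIs in 115 nuclei) in library 2. The claustrum intervals did not overlap those of layer 2/3 neurons, at 2.52 and 5.16 CPM, or of layer 6 corticothalamic neurons, at 0.920 and 3.01 CPM, and the free RNA levels were 3.46 and 4.99 CPM. The ratio to the next subclass was 3.03 (1.11 to 9.53) over VIP interneurons in library 1 and 2.84 (1.17 to 8.30) over layer 5/6 near-projecting neurons in library 2. Of claustrum nuclei, 14.9% and 19.1% held a Slc7a11 UMI at median depths of 5106 and 4904 UMIs, against 0.341% and 1.11% of layer 6 corticothalamic nuclei at 3648 and 3655. Thinned to 500 UMIs, the claustrum shares were 2.99% and 3.48%, and the corticothalamic shares 0 of 586 nuclei (upper bound 0.628%) and 1 of 543. Slc7a11 was the 1 member of 10 with a clear highest neuronal subclass, in each library and pooled, where 13% of all genes had one. That ranking included nuclei without a subclass. Of these, 2390 excitatory nuclei held a Slc7a11 UMI in 4.48% and 543 inhibitory nuclei in 2.21%. The pooled claustrum share was 17.6%, all unthinned. Mt1 in claustrum nuclei was 202.2 CPM pooled, within the 128.5 to 247.8 CPM of the other named excitatory subclasses. Some other members also ranked high there, none clearly. Among subclasses above free RNA, Prdx6 (53.99 CPM) and Sod1 (44.46 CPM) were highest in claustrum nuclei pooled. Mt3 was highest there in library 1, at 251.9 CPM, 1.45 times the next subclass (0.999 to 2.15). Pooled, Mt3 (294.3 CPM) and Gclm (63.52 CPM) came next after another subclass.

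**Figure D2:**
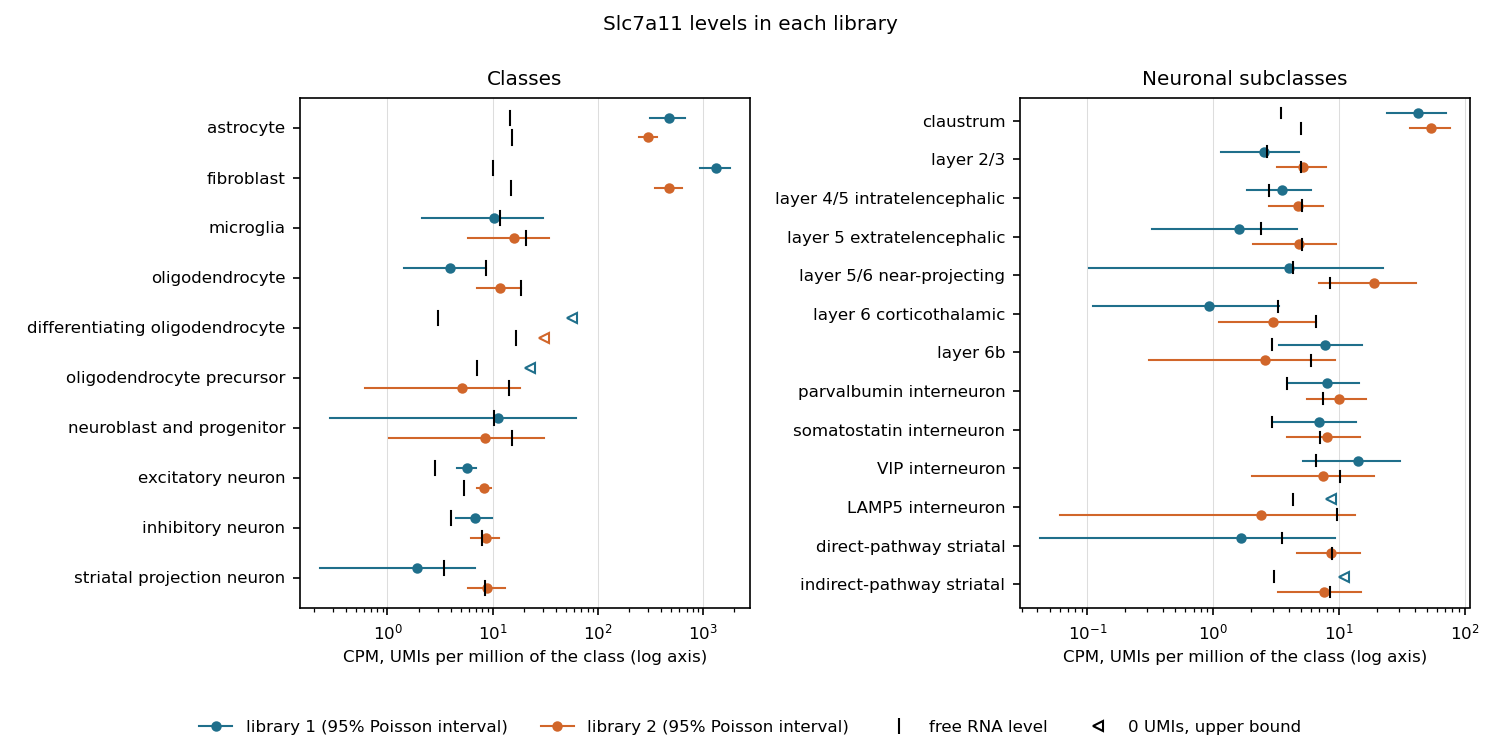
Slc7a11 in CPM (log axis) by class (left) and named neuronal subclass (right), without the nuclei that had no subclass. Points are libraries with exact 95% Poisson intervals, black ticks are free RNA levels and open triangles are upper bounds for 0 UMIs. Astrocytes and the class named fibroblast, whose Slc7a11 UMIs all lay in its 49 nuclei of unsettled type, stood apart on the left and claustrum nuclei on the right, in both libraries.

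Gclc and Gclm, the subunits of glutamate-cysteine ligase, had no clear highest class. Gclc lies at chr9:77754535-77794485 and Gclm at chr3:122245557-122270732, both on the plus strand. Gclc was at 39.0 CPM (36.1 to 42.0, 701 UMIs) in excitatory neurons of library 1 and 37.2 CPM (34.5 to 40.0, 729 UMIs) in those of library 2. In striatal projection neurons it was at 49.4 and 48.2 CPM and in inhibitory neurons at 44.4 and 46.0 CPM. These neuronal Gclc levels lay above their free RNA levels, 11.4 to 22.6 CPM, in both libraries. Astrocytes, with 4 and 9 Gclc UMIs (65.2 and 26.8 CPM), did not pass their own free RNA levels of 82.33 and 32.65 CPM. Their ratios to excitatory neurons were 1.67 (0.454 to 4.30) in library 1 and 0.721 (0.328 to 1.375) in library 2. Both intervals include 1, so no difference from those neurons was detectable at this depth. Gclm was at 43.7 and 51.0 CPM in excitatory and at 51.9 and 58.4 CPM in inhibitory neurons, above free RNA in both libraries. Oligodendrocytes had 67.2 CPM (54.8 to 81.6) and 88.9 CPM (74.6 to 105.3) of Gclm, above free RNA in library 1 and not in library 2.

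Gpx4 (chr10:80047166-80056439, plus strand) was highest in oligodendrocytes of library 1, at 225.3 CPM (202 to 250.5, 342 UMIs), and at 432.9 CPM (400.4 to 467.3, 657 UMIs) in those of library 2. In library 2 that did not pass the free RNA level of 410.5 CPM, and fibroblasts (443 CPM), microglia (391.4 CPM) and oligodendrocytes had overlapping intervals. Excitatory neurons had 73.2 and 134 CPM, above free RNA levels of 49.0 and 117.5 CPM. These limits rest on the average myelin ratio, and in library 1 single classes ranged from 0.0898 to 0.2277 around 0.1213. Whether the Gpx4 call holds at a higher ratio was not tested. Astrocytes, at 130.3 and 318.7 CPM, did not exceed free RNA in either library.

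Prdx6 (chr1:161240112-161251219, minus strand) was, like the metallothioneins, highest in astrocytes. Astrocytes had 293.3 CPM (173.8 to 463.5, 18 UMIs) in library 1 and 366.3 CPM (304.4 to 437.1, 123 UMIs) in library 2, with free RNA levels of 90.3 and 91.9 CPM. The astrocyte interval of library 2 lay above those of all other classes, and the ratio to microglia, the next class, was 2.75 (1.97 to 3.90). In library 1 the ratio to fibroblasts was 1.82 with an interval of 0.650 to 6.26, so astrocytes could not be told from that class there. Excitatory neurons had 34.0 and 51.2 CPM of Prdx6, above free RNA in both libraries at the average myelin ratio. A higher ratio was not tried.

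Neither dismutase had a clear highest class. Sod1 lies at chr16:90220754-90226329 and Sod2 at chr17:13006846-13040063. Sod1 was at 23.6 and 35.0 CPM in excitatory neurons and at 48.9 (3 UMIs) and 107.2 CPM (75.1 to 148.4, 36 UMIs) in astrocytes. Sod2 was at 28.0 and 35.5 CPM in excitatory neurons and at 65.2 (4 UMIs) and 95.3 CPM (65.2 to 134.5, 32 UMIs) in astrocytes. In library 2 the astrocyte levels of both were above free RNA, and the ratios to microglia were 1.09 (0.668 to 1.77) for Sod1 and 1.15 (0.682 to 1.96) for Sod2. Sod1 overlaps at its end the protein-coding gene Scaf4 on the opposite strand, with 4019 UMIs for Scaf4 and 2224 for Sod1, and whether counting used strand is not given in the sources used here.

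**Figure D3:**
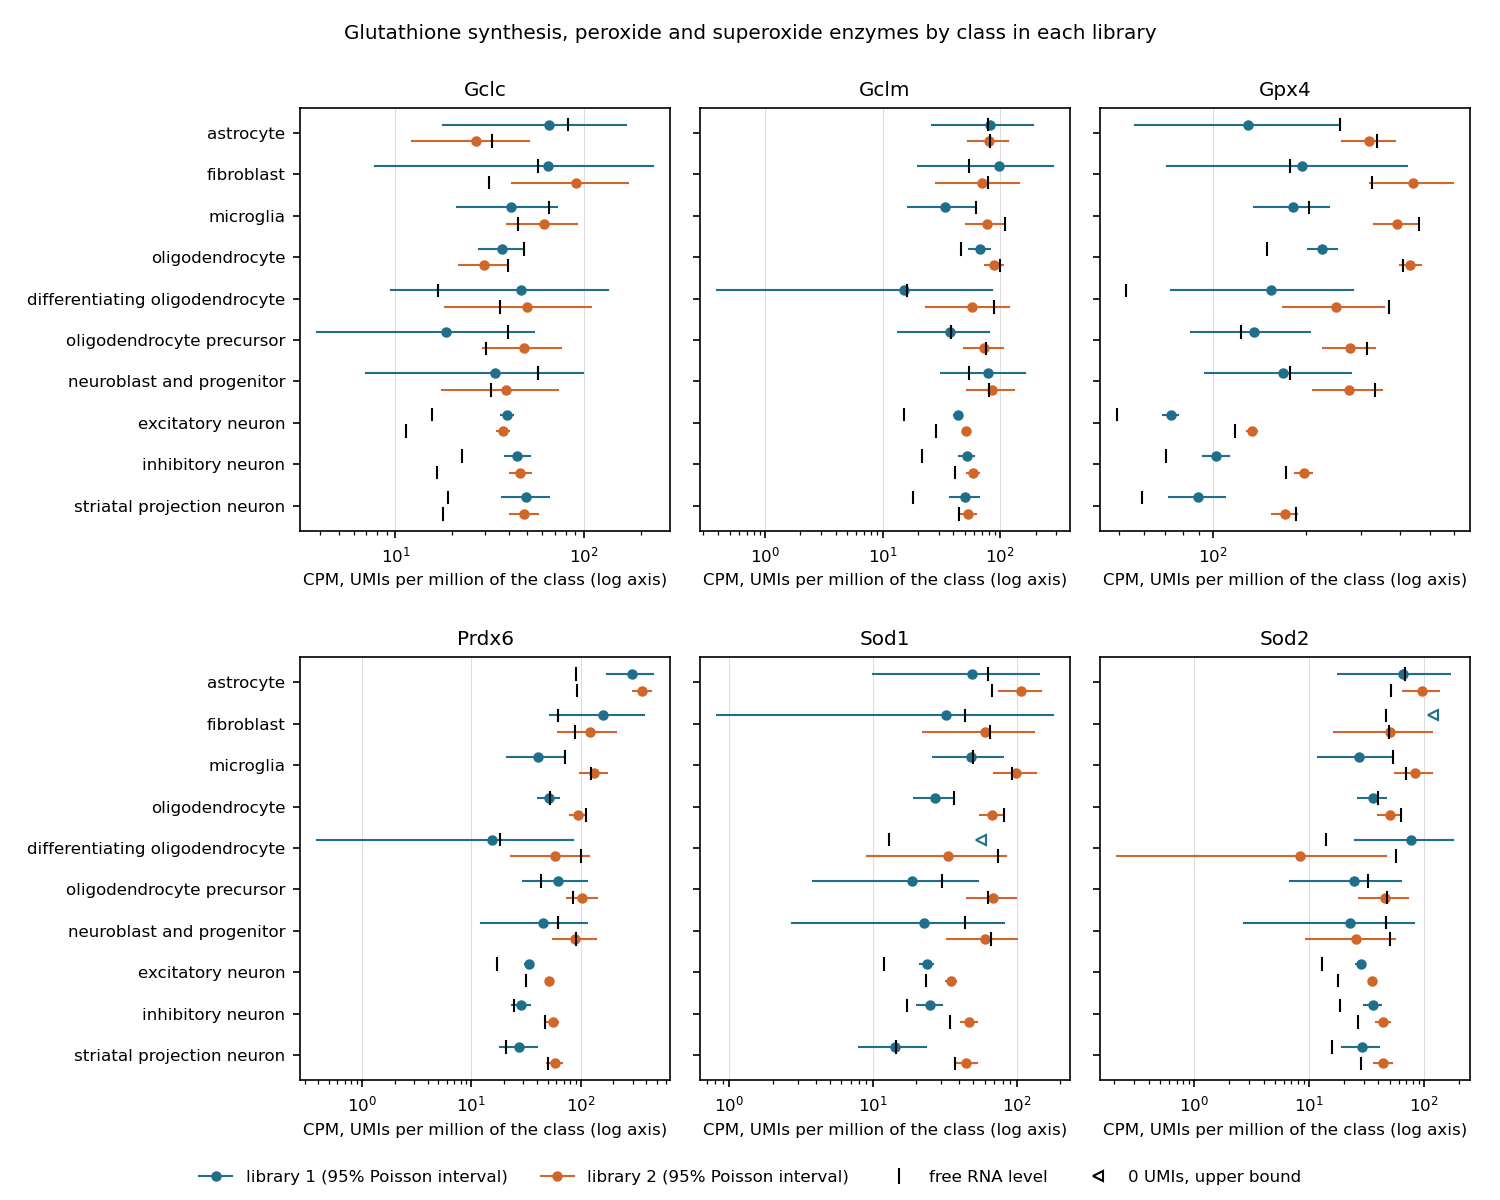
Levels of Gclc, Gclm, Gpx4, Prdx6, Sod1 and Sod2 in CPM (log axis) by class. Points are libraries with exact 95% Poisson intervals, black ticks are free RNA levels and open triangles are upper bounds for 0 UMIs. Prdx6 was highest in astrocytes, clearly so in library 2 and with an interval that overlapped that of fibroblasts in library 1, and the other 5 overlapped between their leading classes.

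Metallothioneins were higher in library 2 than in library 1 in most classes. The ratio for Mt1 was 1.62 in astrocytes, 1.87 (1.08 to 3.48) in fibroblasts and 3.49 to 6.77 in the other 8 classes of at least 100 nuclei, and the differences between classes were not tested. Mt1 in excitatory neurons was 4.92 times as high in library 2 as in library 1 (4.58 to 5.29), Mt2 6.66 times (5.68 to 7.85) and Mt3 2.44 times (2.32 to 2.58), while the median gene was at 0.998. In excitatory neurons 5 of 10 members exceeded 1.5 times, against 6.32% of genes. In inhibitory neurons it was 6 of 10 against 7.18%, in striatal projection neurons 7 of 9 against 9.93%, in oligodendrocytes 6 of 9 against 17.9%, and in microglia 6 of 6 against 20.8%, counting members with at least 50 UMIs. Mt1 in microglia was at 140.3 CPM in library 1 and at 950.6 CPM in library 2, a ratio of 6.77 (4.89 to 9.60). In astrocytes 3 of 6 members exceeded 1.5 times, Mt1 at 1.62 (1.25 to 2.13), Mt2 at 1.53 (1.08 to 2.25) and Gpx4 at 2.44 (1.20 to 5.81), against 24.2% of genes, and Mt3 was at 1.11 (0.865 to 1.45). Slc7a11 went the other way in astrocytes, 0.637 (0.418 to 0.998). Gclc and Gclm were near 1 in excitatory neurons, 0.954 and 1.17.

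Other transcripts moved with the metallothioneins between libraries. In excitatory neurons Apoe, a transcript of astrocytes and microglia, was 5.18 times as high in library 2 (4.95 to 5.43), Cst3 2.37 times and the choroid plexus gene Ttr 18.7 times (13.3 to 27.1). The Slc17a7 level in oligodendrocytes, where only free RNA should give it, was 218 CPM in library 1 and 470.4 CPM in library 2, a ratio of 2.16 (1.89 to 2.46). In astrocytes it was 374.7 and 387.2 CPM, a ratio of 1.03 (0.660 to 1.69), and in fibroblasts and neuroblasts the ratios were 1.44 (0.661 to 3.58) and 1.47 (0.921 to 2.44). With 1 library per group, treatment, free RNA, library preparation and other differences between the libraries, such as their shares of cell types, cannot be told apart as sources of these differences.

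**Figure D4:**
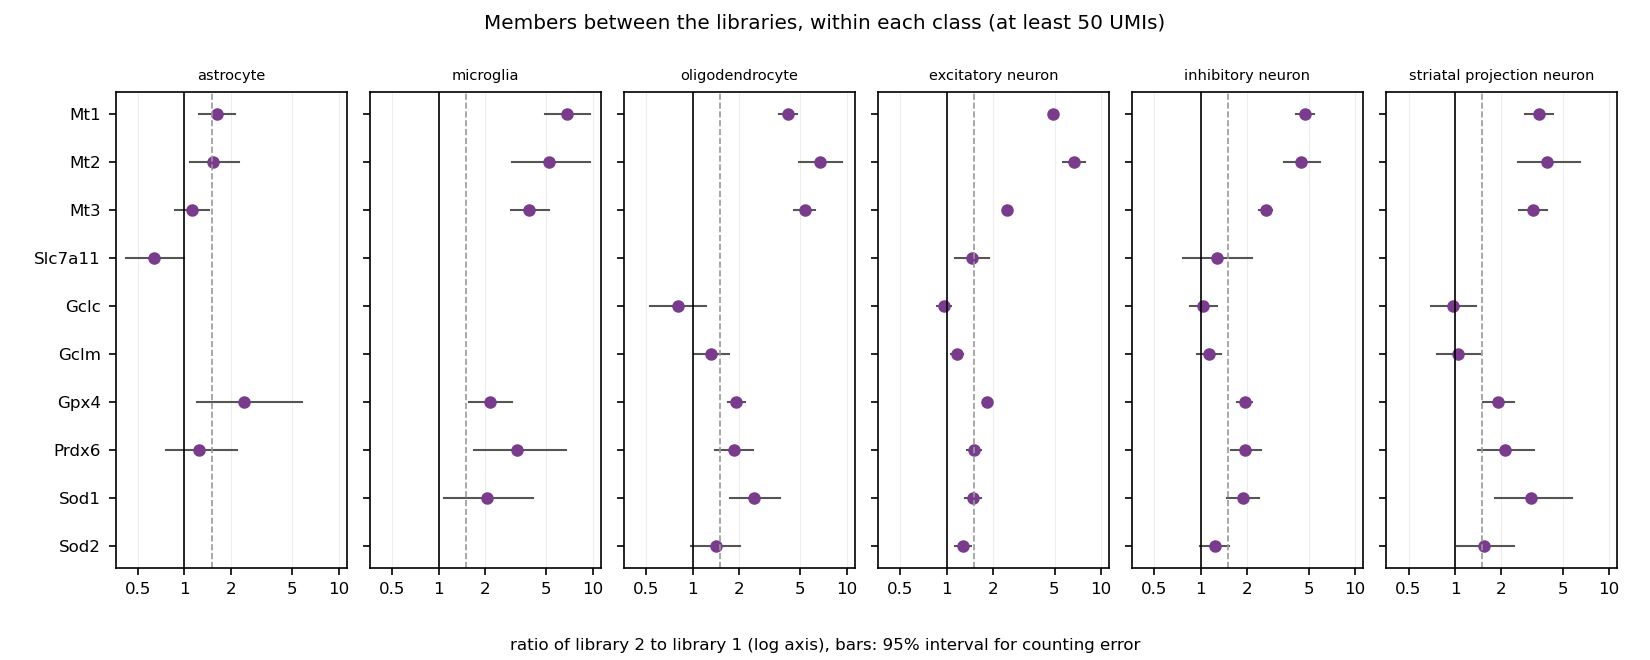
Ratio of each member's level in library 2 to that in library 1 (log axis) within 6 classes, for members with at least 50 UMIs. Bars are exact 95% intervals for counting error, the solid line marks equal levels and the dashed line 1.5 times. Mt1, Mt2 and Mt3 lay above the dashed line in the 5 classes other than astrocytes.

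Genes with the most similar profile were found over 20 points, 10 classes in 2 libraries, by Pearson's r of log2(CPM + 10) among 10708 genes with at least 500 UMIs. The points share libraries, depths and free RNA, so r is a description. Mt1 was closest to Cox6c (0.948), Tagln3 and Ndufa8, Mt2 to Gstm5 (0.949), Clu and Ndrg2, and Mt3 to Aldoc (0.953), Cox6c and Mlc1. Prdx6 was closest to Gja1 (0.926), which is on the astrocyte marker list used here, then to Ndrg2 and Clu. Slc7a11 was closest to Id3 (0.938), Anxa5 and AC154683.1. Gpx4 was closest to Ubb (0.956), Hspa8 and Rpl41. Gclc had no close match, with Asns first at 0.769, then Tax1bp1 and Kpna1. Gclm was closest to Fmc1 (0.904), Ddb1 and Got1, and Sod2 to Aar2 (0.883), Narfl and Tmem14a. Among members, r was 0.934 for Mt1 with Mt2, 0.947 for Mt2 with Mt3 and 0.911 for Mt1 with Mt3.

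Around the members, 114 other genes of these pathways were listed, 108 had enough UMIs, and 24 had a clear highest class, close to the 22.1% of all genes. Microglia led for 8 of the 24 and astrocytes for 6. Over all genes 2.4% were clearly highest in astrocytes, and the share for microglia was not counted. The same class led in each library for 19, clear there or not, the others being Chac1, Cth, Gstm5, Sesn1 and Selenow. No share over all genes was counted for this either. In a library alone, 8 pathway genes were clear in library 1 and 14 in library 2. In glutathione synthesis and precursor supply 6 of 14 were clear. Cth and Cbs, the transsulfuration enzymes that make cysteine from homocysteine, were highest in astrocytes, Cth at 50.4 CPM (0 in library 1 and 59.6 in library 2) and Cbs at 161.1 CPM, 10.5 times the next class (2.79 to 88.5). Slc1a1, a glutamate and cysteine transporter, led in differentiating oligodendrocytes at 484.7 CPM, and Chac1, which degrades glutathione, in neuroblasts at 21.7 CPM (11.2 and 25.7 by library). Of glutathione peroxidases and transferases 5 of 18 were clear. Hpgds led in microglia at 668 CPM, 17.04 times the next (13.9 to 21.04), and Gstm5 in astrocytes (195.5 and 375.2 CPM by library). Gstm7 led in oligodendrocytes and Gstt1 in the class named fibroblast, whose kinds of nuclei were not told apart for it.

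In the peroxiredoxin and thioredoxin list 1 of 22 was clear (Sesn1, microglia, 249.9 and 159.8 CPM by library), among other superoxide and peroxide enzymes 1 of 5 (Pon2, astrocytes), and in the Nrf2 axis, which drives many of these genes, 1 of 16 (Bach1, a repressor of that axis, microglia at 37.4 CPM). Among genes of metal sensing, transport and storage 6 of 22 were clear. The zinc transporter Slc39a12, itself an astrocyte marker here, was at 294.6 CPM in astrocytes, and the iron exporter Slc40a1 at 77.9 CPM in microglia. Ferritin light chain Ftl1 was also highest in microglia, at 441.8 CPM, 1.515 times the next class (1.08 to 2.18). Mtf1, the factor that binds metal response elements, was highest in oligodendrocytes at 76.8 CPM, 1.94 times the next class (1.25 to 3.16), and not in astrocytes. In the ferroptosis list 4 of 11 were clear, Selenop, Lpcat3 and Acsl4 in microglia and Selenow in the class named fibroblast (355.3 and 785.3 CPM by library). The kinds of nuclei of that class were not told apart for Selenow.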

How the data were processed

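The deposited matrix holds UMI counts, whole numbers per gene and nucleus that the authors left unnormalized. Per the submitters' processing notes, Cell Ranger 1.3.0, Seurat 3.1.4 and mm10 were used, and per the file headers the matrix was written by software version 3.1.0. Barcode suffixes separate library 1 (9890 barcodes, 31273163 UMIs) from library 2 (10876 barcodes, 35292937 UMIs), and no label ties either to a group.

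Barcodes under 500 genes were dropped, and so were doublets called by Scrublet in each library (10.0% and 6.19%). With the members and pathway genes left out, 3000 variable genes, 50 principal components and 20 neighbours gave Leiden clusters at resolution 1 (Scanpy 1.11.5, igraph 0.11.9), and unnamed clusters were clustered again at 0.5. Clusters were named from marker lists by rules that were in part set after clusters were seen: neuronal subclasses needed a score of 0.4, and a family's own subclass markers did not count against its name. Classes of at least 100 nuclei could be called highest.

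The free RNA level is the class's Slc17a7 CPM times the lowest gene-to-Slc17a7 ratio (upper Poisson bound) over classes of at least 200000 UMIs. In excitatory neurons myelin genes replaced Slc17a7. Ratios have exact conditional intervals. Only the rule for a clear highest class was tested on simulated counts, drawn without free RNA.

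All 10 members are described. From each pathway list, up to 4 genes with a clear highest class and the largest ratio to the next class are named, and for each member the 3 genes of highest r, except that those of Sod1 are not reported here. Members and lists were chosen with earlier results of these data known. Genes named for the split of the fibroblast class, and Malat1, Apoe, Cst3 and Ttr, were chosen after their values were seen. Promoter sequences come from RefSeq (GRCm38.p6) and coordinates from GENCODE on mm10. Alternatives covered barcode filter, doublets, free RNA, pooling, scaling, clustering, depth and each library alone.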

Additional observations from a re-analysis of the deposited data

How the results depend on the processing

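Of the 10 members, 5 had a clear highest class, and with either library alone, doublets kept, members among the clustering genes, Leiden resolution 2, free RNA subtracted, other scalings, thinning to 500 UMIs or fibroblasts left out the count was 4 to 6. With at least 1000 genes per nucleus it was 0 and 0 of 10 members kept their highest class. Astrocytes (89 nuclei) and fibroblasts then fell under the minimum of 100 nuclei, which took away that class for 8 members, while Gclm went from inhibitory to excitatory neurons and Gpx4 from oligodendrocytes to inhibitory neurons, whose cause was not tested. Of 10 members, 6 kept their highest class in library 1 alone and 6 when thinned to 500 UMIs. The 24 pathway genes with a clear highest class became 8 in library 1, 14 in library 2 and 12 with free RNA subtracted. The share of astrocyte nuclei with an Mt1 UMI went from 53.4% at 500 UMIs to 78.9% at 1000 UMIs, where 67 of 309 nuclei were too shallow and left out. The Slc7a11 level of the fibroblast class, 675.5 CPM pooled, was 0 with resolution 2 or members among the clustering genes and 6.82 CPM with doublets kept, where all 88 Slc7a11 UMIs of the original class lay in nuclei that stayed unnamed. Mt1 in astrocytes ran from 997.1 CPM (free RNA subtracted) to 1754 CPM (50 most abundant genes left out of the total). Of 118 recomputed member levels, 37 moved beyond their counting interval. A mean of per-nucleus CPM has no counting interval, so it gave no count of clear classes. Few astrocyte and fibroblast nuclei of library 1 (51 and 30) limit the precision of ratios there. No paired analysis was possible because there is 1 library per group.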
